A study of Mus musculus with 10 samples.

Results

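Among the 18901 genes measured by RNA sequencing, 28 (0.148%) stood high in both pre-iPS libraries and low in every other library of the series. The genes were chosen from the values themselves. The smaller of the pre-iPS values had to reach 100, and it had to be no less than 4 times the largest value found in the fibroblast and iPS libraries. The reprogramming factor genes *Pou5f1*, *Sox2*, *Klf4* and *Myc* and the keratin, Hox, collagen, FGF and Wnt genes were set aside by name, which removed 1 gene, *Hoxb13* (132.5 in the lower pre-iPS library against 32.8 in the highest other library). Values are edgeR pseudo-counts from the authors, read counts adjusted to equal library sizes and here called normalised read counts, in which 1 read was worth 0.888 to 1.18.

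The 10 libraries came from 5 mouse lines of 1 background, a cross of mf1 and 129. MEF are embryonic fibroblasts with an Oct4-GFP reporter, grown in DMEM with 10% FCS and sampled at passages 2 and 4. The pre-iPS line, the 'control' iPS line and the 'Netrin-1-derived' iPS clones 1 and 2 were each sampled at passages 5 and 25, and iPS cells were kept in KSR+LIF medium. Reprogramming was by retroviruses for Oct4, Sox2, Klf4 and c-Myc, and the derived clones had in addition been treated with recombinant Netrin-1 during reprogramming. Pre-iPS is a single line, so its 2 libraries are passages of the same cells. A p-value for a difference between lines measures the spread between passages and not between independently derived lines. In the tests of passage it measures how the passage change varies between lines.

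Pre-iPS cells are cells that entered reprogramming and form stable colonies without switching on the endogenous pluripotency network. Such intermediates are known to transcribe lineage genes of tissues that are related neither to the fibroblast nor to the pluripotent cell, and to keep the viral factors active. In these libraries the pre-iPS line was lower than the iPS lines for 7 of 8 naive pluripotency markers (*Nanog*, *Esrrb*, *Dppa3*, *Tfcp2l1*, *Klf2*, *Tbx3* and *Prdm14*, limma adjusted p under 0.05 and at least 2-fold), and their summed level was 8213 to 8744 against 8374 to 41632 in iPS and 1801 to 1857 in MEF. The summed level of 6 epithelial markers was 33666 to 37160 in pre-iPS and 29952 to 47721 in iPS, against 160 to 184 in MEF. Depth was 38110410 to 52946856 reads on genes per library.

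The word "only" holds for height and not for presence, since all 28 genes had a value of at least 10 in 2 or more of the 8 other libraries. The largest gaps belonged to *Npy2r* and *Opcml*, whose lower pre-iPS value was 37.6 and 35.3 times the highest other value. The ratio was 20.8 for *Ube2ql1* and 10.0 for *Lama3*. It was at least 8 in 7 genes and at least 5 in 19. Just inside the fold limit were *Calcrl* (4.01), *Avil* (4.06) and *Tspan12* (4.14), and just outside were *4732490B19Rik* (3.99), *Naalad2* (3.80) and *Nlrc4* (3.79). Just inside the limit on the value were *Tmem132d* (124), *Gm1110* (127) and *Ush1c* (143), and just outside were *Calcb* (99.9), *Adam32* and *Syt16* (both 90.3). These values chose the genes and are given without a test.

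**Figure D1:**
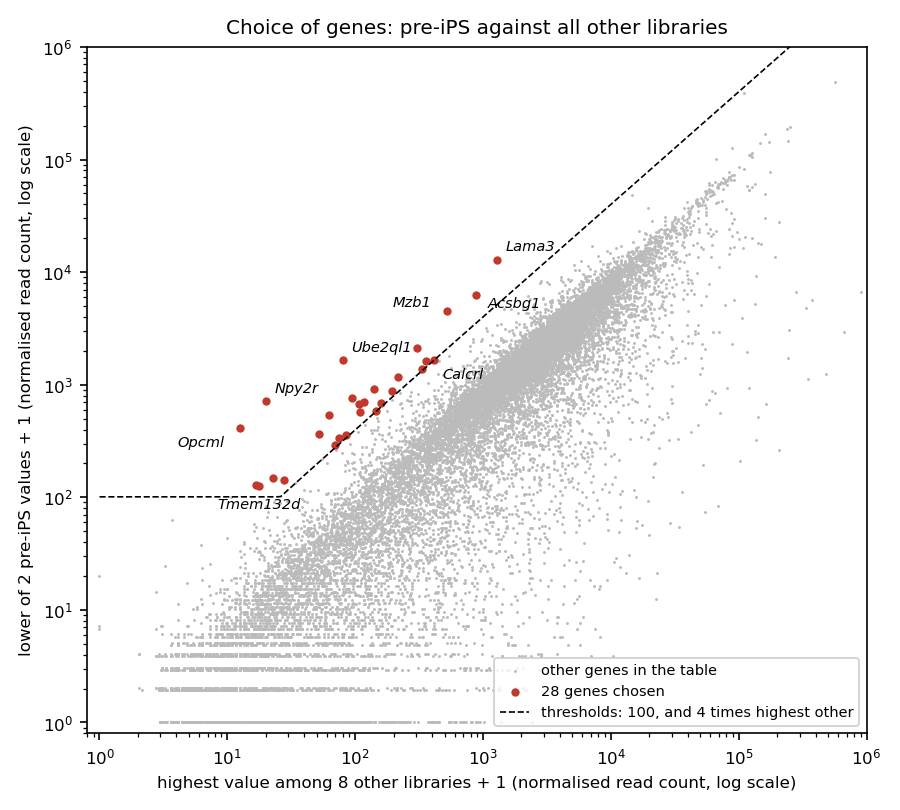
Each point is a gene, with the highest normalised read count among the 8 MEF and iPS libraries on the horizontal axis and the lower of the 2 pre-iPS values on the vertical axis (both plus 1, log scales). The 28 chosen genes (red) lie above the dashed thresholds, with *Npy2r* and *Opcml* farthest from the other genes (grey) and *Lama3* at the highest count, which is not adjusted for length. The 1 grey point above the dashed line is *Hoxb13*, which was left out by name.

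The 2 genes with the largest ratios, *Npy2r* and *Opcml*, are described first, with other genes known from neurons and neuroendocrine cells. *Npy2r*, the Y2 receptor for neuropeptide Y, had 713 and 722 normalised read counts in pre-iPS at passages 5 and 25, a lowest, median and highest value of 0, 1.40 and 2.97 in the 6 iPS libraries, and 17.8 and 19.0 in MEF. *Opcml*, a GPI-anchored adhesion molecule of the IgLON family, had 715 and 410 in pre-iPS, 4.18, 5.16 and 9.67 in iPS, and 10.7 and 11.6 in MEF. For both, fibroblasts were the next highest line and the iPS lines the lowest. *Nlgn3*, a postsynaptic adhesion protein that binds neurexins, had 769 and 957 in pre-iPS, 39.7, 49.7 and 74.5 in iPS, and 92.6 and 72.0 in MEF.

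Other genes known from nervous tissue were instead lowest in fibroblasts. *Ptpn5*, the phosphatase STEP of striatal neurons, had 2213 and 2128 in pre-iPS, 45.3, 99.4 and 305 in iPS, and 7.04 and 5.30 in MEF. *Arpp21*, a cyclic AMP-regulated phosphoprotein of the striatum, had 1166 and 1249 in pre-iPS, 113, 158 and 214 in iPS, and 3.59 and 4.22 in MEF. *Acsbg1*, an acyl-CoA synthetase of brain, adrenal and testis, had 6229 and 7114 in pre-iPS, 409, 519 and 876 in iPS, and 37.2 and 21.3 in MEF. For these 3 genes the step from pre-iPS to iPS was set by the rule. Both of their MEF libraries also lay below all iPS libraries, which was so in 41.9% of all genes. *Pcsk1*, the convertase that cleaves prohormones in secretory granules, had 333 and 467 in pre-iPS, 23.8 to 74.4 in iPS, and 7.13 and 7.39 in MEF. *Tmem132d*, a membrane protein gene, had 124 and 189 in pre-iPS, 7.19 to 16.7 in iPS and 1.19 and 1.06 in MEF.

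*Drp2*, a dystrophin-related protein of Schwann cells, and *Ube2ql1*, an E2-like ubiquitin conjugating protein gene, complete this group. *Drp2* had 1621 and 2894 in pre-iPS, 105, 140 and 168 in iPS, and 357 and 288 in MEF. *Ube2ql1* had 1657 and 1715 in pre-iPS, 39.9, 62.4 and 79.7 in iPS, and 12.3 and 23.1 in MEF. As a check on neuronal identity, the summed level of *Tubb3*, *Map2*, *Dcx*, *Snap25*, *Syt1* and *Stmn2* was 13094 to 17956 in pre-iPS, 6010 to 18411 in iPS and 9980 to 10334 in MEF. Of these 6 markers 1, *Tubb3*, was called different from iPS, and it was lower in pre-iPS. Of 7 neural progenitor markers 1, *Fabp7*, was called, also lower, and *Olig2* was at 0 in pre-iPS.

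**Figure D2:**
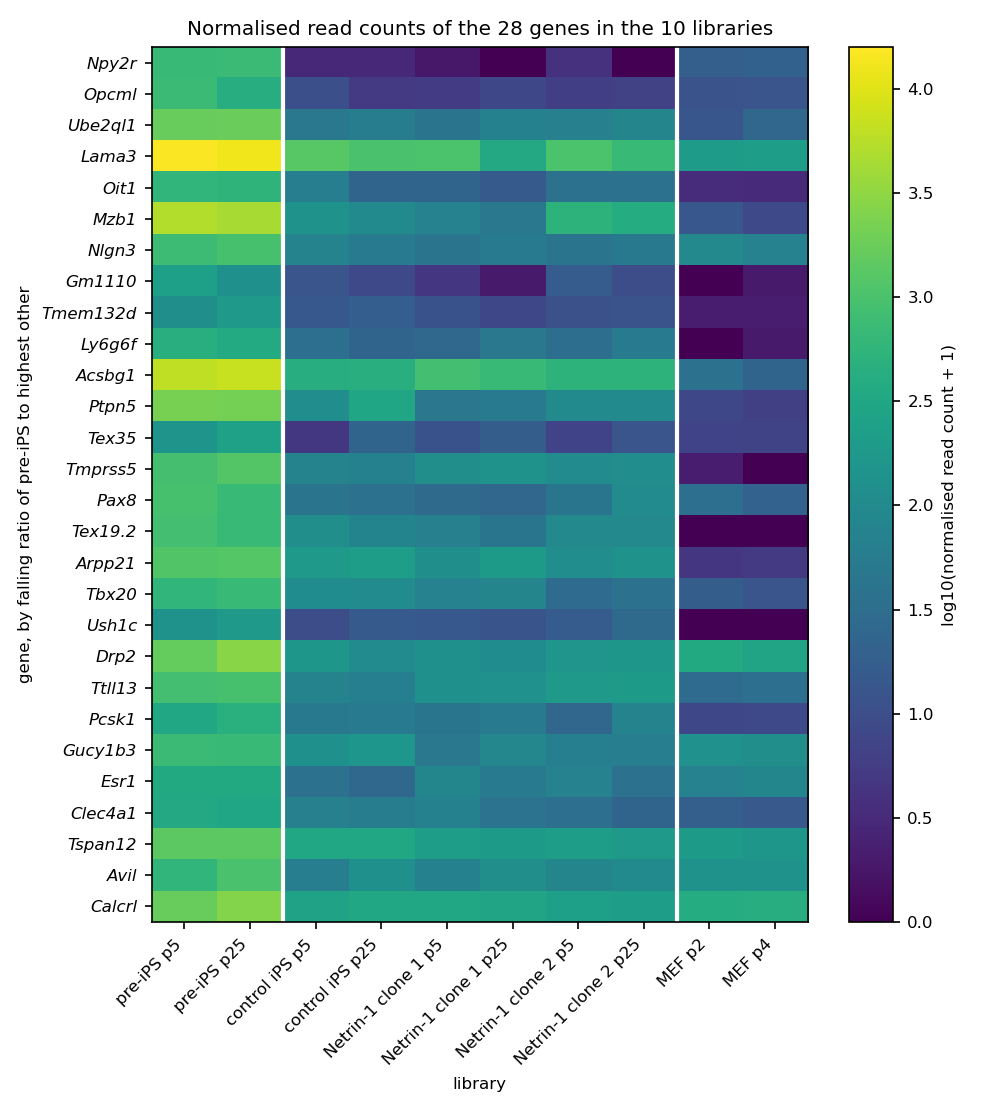
Rows are the 28 genes in the order of the ratio between pre-iPS and the highest other library, columns are the 10 libraries, and colour gives log10 of the normalised read count plus 1. The 2 pre-iPS columns are the brightest in every row, and MEF is the darkest block for genes such as *Tex19.2*, *Ush1c* and *Tmprss5* but not for *Drp2* or *Calcrl*.

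Genes of epithelia, matrix and cell surface formed the next group, led by *Lama3*, the alpha chain of a laminin that anchors epithelia to the basement membrane. *Lama3* had 14927 and 12933 in pre-iPS, 345, 1006 and 1291 in iPS, and 208 and 228 in MEF. *Tmprss5*, a membrane-anchored serine protease, had 914 and 1180 in pre-iPS, 69.9, 108 and 141 in iPS, and 1 read in both MEF libraries together. *Oit1*, of the FAM3 family of small secreted proteins, had 576 and 541 in pre-iPS, 14.4 to 60.9 in iPS, and 2.37 and 2.12 in MEF. These 3 genes were lowest in fibroblasts. *Ush1c*, the scaffold harmonin of hair cells and brush borders, had 143 and 189 in pre-iPS, 8.70 to 26.9 in iPS, and 0 in both MEF libraries. *Avil*, the actin-bundling protein advillin, had 586 and 976 in pre-iPS, 60.9 to 128 in iPS, and 144 and 140 in MEF, and *Tspan12*, a tetraspanin of the norrin receptor complex, had 1376 and 1396 in pre-iPS, 188 to 333 in iPS, and 195 and 165 in MEF. Of 6 keratinocyte markers 1, *Trp63*, was called higher in pre-iPS than in iPS and 1, *Ivl*, lower, with a summed level of 12755 to 23027 against 11529 to 26242.

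Receptors and signalling enzymes were represented by *Calcrl* and *Gucy1b3*. *Calcrl*, which forms receptors for adrenomedullin and CGRP with the RAMP proteins, had 1666 and 2598 in pre-iPS, 213 to 332 in iPS, and 399 and 416 in MEF. *Gucy1b3*, the beta subunit of the soluble guanylate cyclase that senses nitric oxide, had 716 and 693 in pre-iPS, 46.2 to 159 in iPS, and 130 and 118 in MEF. Both were expressed in fibroblasts at or above most iPS values.

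Developmental transcription factors gave 3 genes, each from a different organ. *Pax8*, of thyroid and kidney, had 932 and 675 in pre-iPS, 23.6, 39.1 and 106 in iPS, and 32.6 and 20.2 in MEF. *Tbx20*, of the heart, had 574 and 668 in pre-iPS, 28.8, 76.0 and 107 in iPS, and 16.4 and 11.7 in MEF. *Esr1*, oestrogen receptor alpha, had 361 and 358 in pre-iPS, 24.0, 44.5 and 82.6 in iPS, and 71.6 and 83.2 in MEF. Relatives of these factors were called lower more often than higher before quantile normalization. Of 124 other genes tested that were listed by name as homeobox genes outside the Hox clusters, 5 were higher in pre-iPS than in iPS and 37 lower. Quantile normalization gave 11 and 29, and it turned the median difference of that list from -0.33 to 0.12 on the log2 scale. The 5 called higher before it were *En2*, *Pou3f4*, *Pou5f1*, *Six3os1* and *Vax2*. Of these *Pou5f1* (Oct4) is also carried by the retroviruses. *Six3os1* is by its name an opposite-strand transcript of *Six3* and not a homeobox gene. Of 17 other GATA and T-box genes 1, *Tbx15*, was higher and 3 were lower (2 and 2 after quantile normalization). Over all 17075 genes tested in this contrast 4.71% were higher and 11.6% lower (804 and 1977 genes, and 1354 and 1494 after quantile normalization).

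Germline genes were a mixed case. *Tex19.2*, a gene of germ cells and placenta, had 874 and 697 in pre-iPS, 42.1, 85.1 and 116 in iPS, and 0 reads in MEF. Its adjacent paralog *Tex19.1* had 3529 and 2759 in pre-iPS and 1498 to 4083 in iPS. How reads that fit both genes were treated in counting is not given in the sources used here. *Tex35*, a testis-expressed gene, had 148 and 249 in pre-iPS, 3.87 to 21.9 in iPS, and 5.95 and 6.33 in MEF. *Ttll13*, of the tubulin polyglutamylase family, had 871 and 933 in pre-iPS, 64.7 to 193 in iPS, and 28.7 and 33.7 in MEF. Most other genes with testis-restricted names were low in pre-iPS: among 51 other Mage, Prame, Xlr and Tex genes 1, *Tex21*, was higher than in iPS and 32 were lower. The germ cell markers *Ddx4*, *Dazl*, *Sycp3*, *Mael* and *Tex101* were all lower, with a summed level of 26.5 to 29.7 in pre-iPS against 1027 to 4633 in iPS.

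Genes named for immune cells were *Mzb1*, *Ly6g6f* and *Clec4a1*. *Mzb1*, an endoplasmic reticulum cochaperone of B and plasma cells, had 5169 and 4497 in pre-iPS, 47.2, 121 and 521 in iPS, and 12.8 and 7.46 in MEF. *Ly6g6f*, a membrane protein gene of the MHC class III region, had 448 and 364 in pre-iPS, 21.9 to 51.1 in iPS, and 1 read in both MEF libraries together. *Clec4a1*, a C-type lectin of myeloid cells, had 343 and 288 in pre-iPS, 21.5 to 68.4 in iPS, and 17.6 and 13.8 in MEF. The macrophage markers *Emr1* and *Tyrobp* were at 0 in both pre-iPS libraries, *Ptprc* was called higher in pre-iPS than in iPS while staying under 10, and the summed level of the 6 macrophage markers in the table was 892 to 1657 in pre-iPS, 433 to 1269 in iPS and 11462 to 11489 in MEF. *Gm1110*, a predicted protein-coding gene, had 234 and 127 in pre-iPS, 1.03 to 15.9 in iPS, and 1 read in both MEF libraries together.

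Families that hold these genes were also counted without them. Of 31 other lectins 2 were higher and 3 lower (5 and 1 after quantile normalization), of 18 other tetraspanins 2 were higher and 4 lower, and of 54 other membrane and secreted serine proteases 9 were higher and 10 lower (10 and 7). Neither of the 2 other neuropeptide Y receptors tested was called, and *Npy1r* had 46.9 and 57.6 in pre-iPS against 43.6 to 68.8 in iPS (log2 difference -0.08, SE 0.20). Of the 3 other IgLON genes tested 1, *Ntm*, was higher. Among 1640 other gene models named only by a number 89 were higher and 258 lower (250 and 203).

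Levels were compared between genes as RPKM, that is, per length of annotated exon and per reads on genes. The highest mean pre-iPS level was that of *Mzb1* at 95.8, above 97.8% of genes in that line, followed by *Acsbg1* at 44.7, *Lama3* at 31.2 and *Ube2ql1* at 15.2. The lowest were *Tmem132d* at 0.585, *Esr1* at 0.635 and *Opcml* at 0.932. *Npy2r* reached 5.11, against 0.00944 in iPS and 0.0971 in MEF. The set therefore ran from some of the most abundant transcripts of the line to genes in the lower part of its range.

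The next question was whether the products these genes work with also differed. Ligands, partner subunits and close paralogs were listed for the chosen genes, and pre-iPS was tested against the mean of the 3 iPS lines with limma. Of 93 such genes tested 13 were higher and 18 lower (14% higher, against 4.71% higher and 11.6% lower of all genes), so calls were more frequent in both directions, and after quantile normalization 19 and 16. Without the passage 5 pre-iPS library, *Npy*, *Ntm*, *Itgb4*, *Ly6g6c*, *Tmprss4*, *Pcdh15* and *Fam3b* lost their call as higher and *Acsbg2* and *Pgr* as lower. Without the passage 25 pre-iPS library *Pcdh15* and *Fam3b* lost it as higher and *Nos3* and *Ppp1r1b* as lower. Leaving out single iPS libraries also moved the number called higher. It fell without the control line or clone 2 at passage 25 and rose without clone 2 at passage 5.

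Ligand and receptor genes gave 2 cases. *Npy*, the ligand of *Npy2r*, had 122 and 48.0 in pre-iPS, 1.03 to 35.7 in iPS, and 45.5 and 30.8 in MEF, a log2 difference of 2.98 from iPS (SE 0.78, adjusted p = 0.0159). *Calcb*, which encodes beta-CGRP, a ligand of *Calcrl*, had 202 and 99.9 in pre-iPS, 2.90 to 9.76 in iPS, and 3.55 and 3.18 in MEF, a difference of 4.61 (SE 0.48, adjusted p = 0.000189). Its paralog *Calca* went the opposite way, with 69.4 and 81.6 in pre-iPS against 353 to 867 in iPS (-2.58, SE 0.27, adjusted p = 0.000191). The accessory protein gene *Ramp2* was lower too, at 32.6 and 28.8 against 98.0 to 226 in iPS (-2.30, SE 0.31, adjusted p = 0.000644), while *Ramp1* and *Ramp3* did not pass the test. *Calcr*, the closest paralog of *Calcrl*, had at most 1.02 in pre-iPS and 4.96 to 37.7 in iPS.

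Subunits and binding partners gave further cases. *Gucy1a3*, the alpha subunit that pairs with the product of *Gucy1b3*, had 128 and 106 in pre-iPS, 5.32 to 50.1 in iPS, and 229 and 277 in MEF (log2 difference from iPS 2.99, SE 0.45, adjusted p = 0.00121), and the kinase *Prkg1* downstream of it did not pass the test. *Pcsk1n*, which encodes the inhibitor of the *Pcsk1* convertase, had 2154 and 1787 in pre-iPS, 233 to 542 in iPS, and 7.04 and 5.30 in MEF (2.55, SE 0.17, adjusted p = 1.57e-05). *Prx*, periaxin, the partner of *Drp2* in Schwann cells, had 7655 and 7968 in pre-iPS, 700 to 4386 in iPS, and 633 and 617 in MEF (1.75, SE 0.15, adjusted p = 7e-05). In these 3 cases both pre-iPS libraries lay above all iPS libraries, and the share of all genes for which this holds was not counted. The granule gene *Chga* was lower, at 7.14 and 11.5 in pre-iPS against 115 to 233 in iPS (-4.10, SE 0.55, adjusted p = 0.000686). Also among the 18 partners called lower, against 13 higher, were the neurexin gene *Nrxn2* (-1.55, SE 0.22, adjusted p = 0.00088), *Myo7a* (-1.54, SE 0.23, adjusted p = 0.00113) and *Nos3* (-1.71, SE 0.38, adjusted p = 0.00756).

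*Lamb3*, a partner chain of *Lama3* in the same laminin, had 762 and 321 in pre-iPS against 92.8 to 594 in iPS. It did not pass the test (log2 difference 1.12, SE 0.76, adjusted p = 0.275). *Itgb4*, a chain of the integrin that binds this laminin, had 21354 and 11074 in pre-iPS against 2834 to 11396 in iPS, which overlap, and a difference of 1.58 (SE 0.39, adjusted p = 0.0122). Other alpha chains split. *Lama4* was higher, with 8238 and 9172 against 2146 to 3295 in iPS (1.71, SE 0.10, adjusted p = 8.11e-06) and 22021 and 22143 in MEF. *Lama1*, the alpha chain of embryonic basement membranes, was lower, with 110 and 132 against 1298 to 9610 (-4.71, SE 0.47, adjusted p = 0.000149).

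No listed partner of the transcription factors was called higher. *Wt1*, a kidney factor, was lower (log2 difference -2.69, SE 0.18, adjusted p = 1.6e-05), as was the cardiac gene *Nkx2-5* (-3.38, SE 0.36, adjusted p = 0.000196) and *Tbx3* (-1.52, SE 0.16, adjusted p = 0.000207). *Pax2*, *Gata4*, *Tbx5* and *Hand2* did not pass the limits, and *Nkx2-1* and *Pax5* were too low to test, with at most 7.68 and 2.88 in pre-iPS. The oestrogen target *Greb1* had 471 and 767 in pre-iPS against 288 to 758 in iPS, with no call, and *Pgr* had 8.16 and 15.4 against 15.1 to 41.7 and was called lower. That last call was lost with a pseudocount of 5, after quantile normalization and without the passage 5 pre-iPS library. *Hsp90b1*, the chaperone that works with *Mzb1*, differed by -0.02 (SE 0.06), and the plasma cell factors *Xbp1* and *Prdm1* did not pass the test.

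**Figure D3:**
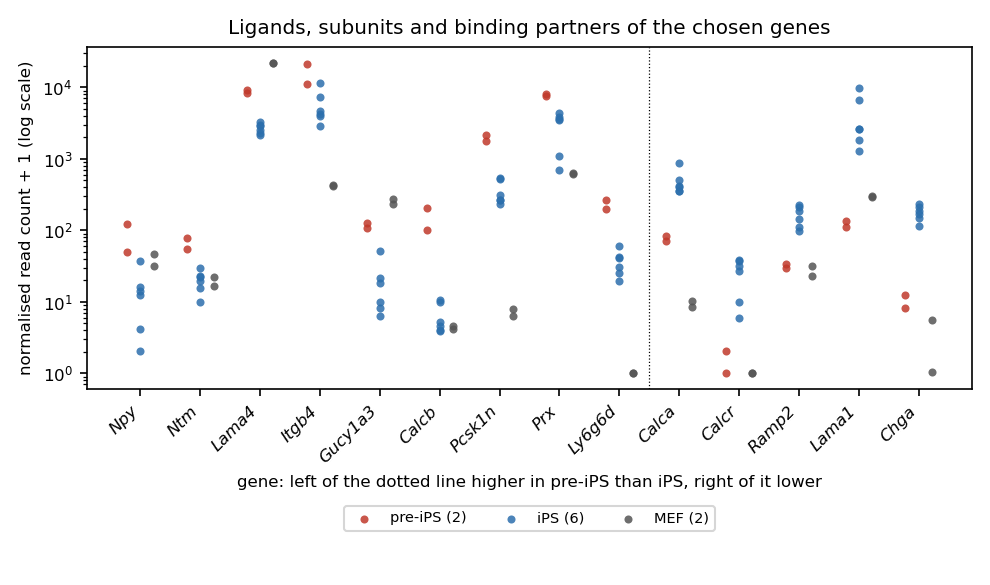
Points are the normalised read counts plus 1 (log scale) of single libraries for 14 ligands, subunits and paralogs, in pre-iPS (red, 2 libraries), iPS (blue, 6) and MEF (grey, 2). Left of the dotted line are 9 of the 13 genes called higher in pre-iPS than in iPS, for example *Calcb* at 202 and 99.9 against at most 9.76. On the right are 5 of the 18 called lower, for example *Calca* at 69.4 and 81.6 against at least 353. The balance of the figure is therefore not that of the calls.

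The 28 genes were then placed on the genome (GRCm38, the mm10 build that the submitters' notes name, with GENCODE M21 genes). All 28 are annotated as protein coding. They lie on 14 chromosomes, 6 of them on chromosome 9 and 2 on the X chromosome (*Nlgn3* and *Drp2*), and no 2 are direct neighbours. The closest pair is *Npy2r* (chr3:82538383-82548084) and *Gucy1b3* (chr3:82032006-82074689, annotated as *Gucy1b1*), 0.464 Mb apart, followed by *Ptpn5* and *Ush1c* on chromosome 7 at 0.839 Mb and by *Opcml* and *Gm1110* on chromosome 9 at 0.868 Mb.

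Neighbouring genes were called in both directions. Of the 56 nearest genes on either side 51 were tested, and 7 were higher and 5 lower in pre-iPS than in iPS (13.7% higher, against 4.71% higher and 11.6% lower of all genes), or 12 and 5 after quantile normalization, which gave 1354 and 1494 of all 17075 genes. *Ntm*, the nearest gene to *Opcml* and like it an IgLON, had 76.5 and 53.8 in pre-iPS, 8.95 to 28.8 in iPS, and 21.1 and 15.9 in MEF (1.79, SE 0.41, adjusted p = 0.00879). *Gucy1a3* lies 17737 bases from *Gucy1b3*, and its values are given above. *Syne1*, which encodes the nuclear envelope protein nesprin-1 and lies 15302 bases from *Esr1*, had 2575 and 4933 in pre-iPS, 760 to 1075 in iPS, and 3924 and 4083 in MEF (2.06, SE 0.22, adjusted p = 0.000205). *Prob1*, 983 bases from *Mzb1*, had 2304 and 1991 in pre-iPS, 652 to 1323 in iPS, and 104 and 89.9 in MEF (1.29, SE 0.15, adjusted p = 0.000359). The others called higher were *Ankrd29* beside *Lama3*, *Sectm1a* beside *Tex19.2* and *Stac* beside *Arpp21*. Those called lower were *Taf7l* (-5.58) beside *Drp2*, *Zswim2* (-4.48) beside *Calcrl*, *Cacna1b* (-3.65) beside *Pax8*, *Abcc8* (-2.84) beside *Ush1c* and *4930452B06Rik* (-1.06) beside *Oit1*. Without the passage 5 pre-iPS library *Ankrd29* and *Ntm* lost their call, and *4930452B06Rik* lost its call without the control line at passage 5, clone 1 at passage 5 or pre-iPS at passage 25. The number of neighbours called higher fell without clone 1 at passage 25 and rose without some other libraries.

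Near *Ly6g6f* (chr17:35080480-35085610) lie other small genes of the LY6 family. *Ly6g6d* had 262 and 200 in pre-iPS, 18.6 to 59.1 in iPS and 0 in MEF (log2 difference 2.75, SE 0.40, adjusted p = 0.000953), and *Ly6g6c* had 3663 and 1620 against 587 to 1703 in iPS (1.53, SE 0.48, adjusted p = 0.0356). *Ly6g6e*, of the same cluster, had 70.4 and 73.9 against 52.1 to 281 and did not pass the test. *Gm4894*, the gene after *Tmprss5*, had 11.2 and 5.76 in pre-iPS and 0 in all 8 other libraries, too little for a test. *Arpp21* overlaps *2900079G21Rik* and *Avil* overlaps *Tsfm* on the opposite strand, and the library kit does not mark strand, so reads in the overlaps cannot be assigned to either. *2900079G21Rik* had at most 15.4 in any library, and *Tsfm* had 1918 and 2048 in pre-iPS against 1696 to 2084 in iPS.

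RefSeq promoter windows (250 bases before and 50 after the start, GRCm38.p6) were found for 23 of the 28 genes. In most of them the CpG dinucleotide was sparse. The CpG ratio, the number observed over that expected from the content of C and G, had a median of 0.332 in the 23 windows and 0.688 in 14313 windows of genes in the table, and it was under 0.5 in 18 (78.3%) of the former and in 33.7% of the latter. The median GC content was 51.7% against 59.0%. The range is shown by 4 windows of the 250 bases before the start, written 5′ to 3′ with each CpG in capitals. *Acsbg1* (chr9:54661886-54662135, minus strand) and *Tex19.2* (chr11:121118678-121118927, minus strand) have 1 and 2 CpG, *Npy2r* (chr3:82548086-82548335, minus strand) has 12, and *Ube2ql1* (chr13:69739898-69740147, minus strand) has 24.
Acsbg1: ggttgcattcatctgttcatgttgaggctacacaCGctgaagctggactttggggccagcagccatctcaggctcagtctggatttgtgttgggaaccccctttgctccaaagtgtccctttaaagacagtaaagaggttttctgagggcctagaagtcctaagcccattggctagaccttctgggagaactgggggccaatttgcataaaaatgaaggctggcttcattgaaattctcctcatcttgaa
Tex19.2: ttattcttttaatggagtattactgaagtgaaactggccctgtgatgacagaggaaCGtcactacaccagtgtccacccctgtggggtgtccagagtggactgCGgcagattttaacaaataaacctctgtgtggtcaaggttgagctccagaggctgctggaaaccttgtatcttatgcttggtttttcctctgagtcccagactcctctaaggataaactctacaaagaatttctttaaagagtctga
Npy2r: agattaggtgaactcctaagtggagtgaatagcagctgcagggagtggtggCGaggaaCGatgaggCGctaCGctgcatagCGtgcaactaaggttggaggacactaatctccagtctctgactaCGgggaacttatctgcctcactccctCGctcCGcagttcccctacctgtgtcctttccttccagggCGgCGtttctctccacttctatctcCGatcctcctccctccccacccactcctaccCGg
Ube2ql1: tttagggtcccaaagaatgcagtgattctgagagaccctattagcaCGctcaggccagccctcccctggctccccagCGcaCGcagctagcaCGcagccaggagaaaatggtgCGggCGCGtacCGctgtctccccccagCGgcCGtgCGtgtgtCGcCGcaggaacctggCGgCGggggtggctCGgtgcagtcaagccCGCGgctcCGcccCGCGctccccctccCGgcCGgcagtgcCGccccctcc

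The lowest ratio was that of *Tmprss5* at 0.043, followed by *Acsbg1* at 0.122 and *Tex19.2* at 0.130. The *Tmprss5* window (chr9:49102478-49102777, plus strand) lies inside the GENCODE gene (chr9:49081260-49117587), so its ratio belongs to an internal start. The *Arpp21* window also lies inside its gene. The highest were *Ttll13* at 0.895, *Ube2ql1* at 0.810, *Tbx20* at 0.745 and *Pcsk1* at 0.721. Genes with the largest ratio of pre-iPS to other libraries were found on both sides of 0.5, since *Npy2r* had 0.565 and *Opcml* 0.417.

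**Figure D4:**
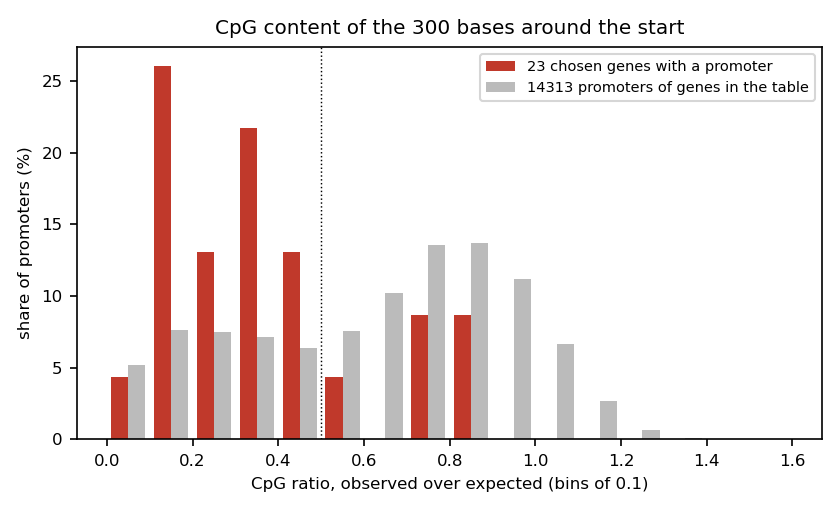
Bars give the share of promoter windows (percent) in bins of 0.1 of the CpG ratio, for the 23 chosen genes with a window (red) and for 14313 genes of the table (grey), and the dotted line marks 0.5. The red bars lie mostly left of the line (78.3%), the grey bars mostly right of it (33.7% left).

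Since the line carries retroviruses for 4 transcription factors, the windows were searched on both strands for short motifs of these factors. The octamer of Oct4 (ATGCAAAT) was in 1 of 23 windows (4.35%, against 1.54% of all 14313), the SOX motif (AACAATG) in 2 (8.70% against 2.33%), the KLF motif (GGGNGTGG) in 7 (30.4% against 22.4%) and the E-box of Myc (CACGTG) in 0 (against 9.20%). The KLF motif was in *Npy2r*, *Ube2ql1*, *Tex35*, *Pax8*, *Ttll13*, *Esr1* and *Avil*. The octamer, on the opposite strand, began 50 bases before the start of *Acsbg1* (chr9:54661917-54661946, minus strand), and the SOX motif 57 bases before that of *Ptpn5* (chr7:47133723-47133752, minus strand) and 221 bases before that of *Calcrl* (chr2:84425469-84425498, minus strand). The 30 bases around each are printed with the motif in capitals. These are matches of letters and not measured binding.
Acsbg1: actgggggccaATTTGCATaaaaatgaagg
Ptpn5: gcggagagattAACAATGtgaaggtcctgg
Calcrl: cttttgctggtAACAATGtgttcatacagc

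Fibroblasts and iPS lines, the cells before and after reprogramming, differed for most of the 28 genes. Against the mean of the 3 iPS lines MEF was lower for 17 genes and higher for 2, so 19 of 28 were called, where 48.2% of all genes were (26.6% lower and 21.6% higher). The median log2 difference of MEF from iPS was -1.91 over the 28 genes and -0.09 over all genes. Quantile normalization gave 21 calls with 7 higher. In bulk RNA, fewer cells with a transcript and less transcript per cell cannot be told apart. The rule capped both groups at the same value and did not fix this direction.

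The genes lower in MEF ranged from *Tex19.2*, with no read in MEF, to *Lama3*, at 208 and 228. *Tex19.2* had 0 reads in MEF and 42.1 to 116 in iPS (log2 difference -6.30, SE 0.26, adjusted p = 1e-07), a mean at least 24.3-fold lower in MEF when 3 reads per library are set as the floor. *Tmprss5* had 1 read in MEF (-6.10, SE 0.29, adjusted p = 2.14e-07). The other differences among the 5 with the lowest fitted values were those of *Arpp21* (-4.99, SE 0.21, adjusted p = 1.11e-07), *Ly6g6f* (-4.58, SE 0.39, adjusted p = 6.07e-06) and *Acsbg1* (-4.25, SE 0.19, adjusted p = 1.65e-07). The mean fold of iPS over MEF was 40.8 for *Arpp21*, 19.7 for *Acsbg1* and, with the same floor, 10.4 for *Ly6g6f*. *Ly6g6f* had the larger log2 difference than *Acsbg1* but the smaller fold, so the order of these genes depends on the scale and the floor. In 7 genes each MEF library had at most 3 reads. The 2 genes higher in MEF were *Npy2r* (3.26, SE 0.50, adjusted p = 0.000293) and *Drp2* (1.23, SE 0.25, adjusted p = 0.00155).

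Counted by overlap, both MEF libraries lay below all 6 iPS libraries in 16 genes (41.9% of all genes) and above them in 5 (38.2%). The calls on *Clec4a1*, *Gm1110* and *Ube2ql1* were lost after quantile normalization (adjusted p = 0.305, 0.123 and 0.0642). Differences of *Nlgn3*, *Calcrl* and *Tspan12* were under 2-fold, at 0.69, 0.59 and -0.41 on the log2 scale with adjusted p of 0.0222, 0.0133 and 0.0155.

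**Figure D5:**
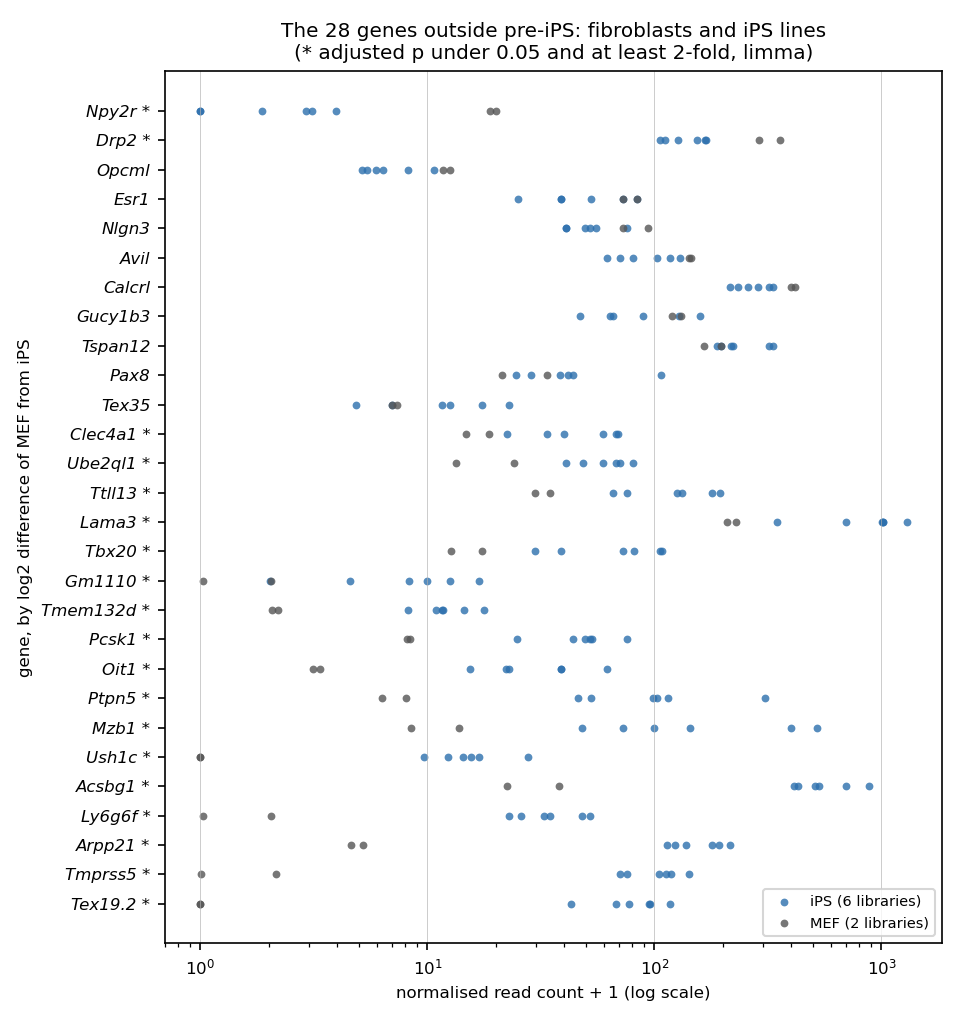
Points are normalised read counts plus 1 (log scale) of the 28 genes in the 6 iPS (blue) and 2 MEF (grey) libraries, with genes in order of the log2 difference and a star where the difference was called. *Npy2r* at the top is higher in MEF, at 17.8 and 19.0 against at most 2.97, and *Tex19.2* at the bottom is at 0 in MEF against 42.1 to 116.

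The passage comparison gave no call in the set. Over the 4 lines, with the line as a block, 0 of 28 genes were called between passages 25 and 5 by limma and 0 by edgeR, where 1.69% of all genes were called by limma. Without adjustment 9 of the 28 and 4971 of all 17075 genes had p under 0.05 by limma, and 10 and 4933 by edgeR, so the 28 were near the share of all genes. *Avil* rose with passage by less than 2-fold (log2 difference 0.72, SE 0.15, adjusted p = 0.0301), and *Mzb1* fell by 0.42 (SE 0.11, adjusted p = 0.047).

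Within the pre-iPS line alone, where each passage is a single library and no test is possible, 16 genes were higher at passage 25 (47% of the 12088 genes with at least 100 in both) and 12 lower. In 14 genes the passages differed by no more than 1.2-fold, against 70.5% of those 12088 genes, and in 7 by more than 1.5-fold, against 5.87%. The 7 were *Drp2* (1.79-fold at passage 25 over passage 5), *Tex35* (1.68), *Avil* (1.67), *Calcrl* (1.56), *Tmem132d* (1.52), *Opcml* (0.573) and *Gm1110* (0.543). The remaining genes held their level within 1.5-fold.

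The passage change of pre-iPS was also compared with that of the iPS lines. Of the 28 genes 0 differed by limma or edgeR, as did 0% of all genes, and 1 of the 28 and 568 of the 17075 had an unadjusted p under 0.05 by limma (1 and 441 by edgeR). That gene was *Drp2*, with a difference in log2 change of 1.07 (SE 0.36, limma adjusted p = 1).

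Netrin-1-derived lines were set against the 'control' line, which is the comparison of the study. Of the 28 genes 1 was called higher (0.99% of all genes) and 2 lower (1.12%), 3 in all (2.11%), and with the passage as a replicate block 4 were, with *Ptpn5* added, where 564 of all 17075 genes were (360 without the block). *Ttll13* had 74.5 and 64.7 in the control line, 125 and 131 in clone 1 and 178 and 193 in clone 2 (log2 difference 1.14, SE 0.16, adjusted p = 0.00997). *Tbx20* had 107 and 105 in the control line, 71.9 and 80.1 in clone 1 and 28.8 and 37.6 in clone 2 (-1.07, SE 0.22, adjusted p = 0.0362). *Gucy1b3* had 128 and 159 in the control line, 46.2 and 88.3 in clone 1 and 64.5 and 62.7 in clone 2 (-1.15, SE 0.25, adjusted p = 0.0457). In all 3 the libraries of the derived lines did not overlap those of the control line, a gap that a call of this size favours. The share of all genes with such a gap was not counted. All values stayed under those of pre-iPS, as the rule requires.

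The calls depended on which libraries were in the fit. With only the 6 iPS libraries 0 of the 28 were called (adjusted p = 0.0689 for *Ttll13*, 0.116 for *Tbx20* and 0.187 for *Gucy1b3*, and an unadjusted p under 0.05 for 7 of 28 and for 2319 of all 17075 genes). Leaving out 1 library at a time left 0 to 2 genes called, with 0 when the control line at passage 25 was left out. The contrast has 1 control line, so treatment and line cannot be told apart.

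Clones 1 and 2 differed from each other in 1 of the 28 genes, *Mzb1*, which was higher in clone 2 (0.966% of all genes were called, 0.714% as higher). *Mzb1* had 71.9 and 47.2 in clone 1, 521 and 400 in clone 2 and 142 and 99.1 in the control line, a log2 difference of clone 2 from clone 1 of 2.95 (SE 0.32, adjusted p = 0.00757). Pre-iPS, at 5169 and 4497, was still the highest. With the passage as a replicate block 3 genes were called, *Gm1110* and *Tbx20* besides *Mzb1*, where 327 of all 17075 genes were. With only the iPS libraries 0 of 28 and 12 of all genes were called by limma, and 5 of 28 and 2107 of all genes had an unadjusted p under 0.05. The call on *Mzb1* was lost without clone 1 at passage 25 (adjusted p = 0.0679) or clone 2 at passage 25 (adjusted p = 0.0542).

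The highest of the 8 other libraries belonged to the control line for 10 genes, to clone 2 for 8, to MEF for 7 and to clone 1 for 3. No single line held the residual expression outside pre-iPS for all genes.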

How the data were processed

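Poly(A) RNA of 10 libraries was read as 50 nt single reads. Per the labels, the submitters' processing notes name CASAVA 1.8.2, FastQC, TopHat2 2.0.8b, HTSeq 0.5.3p9, edgeR and mm10. The authors deposited a normalised signal, edgeR pseudo-counts at a common library size, for 18901 genes. Whole reads were recovered for 100% of values (tolerance 0.05 read). Strand in counting is not given in the sources used here.

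Genes of at least 10 in 2 or more libraries (17075) were tested with limma 3.58.1 in R 4.3.3 (trend) on log2(value + 1), with 1 mean per line over all libraries. Fold changes are on that scale, which understates those of low genes. Passage was tested without MEF (8 libraries), with a term for each line. Calls needed an adjusted p (Benjamini-Hochberg) under 0.05 together with a log2 difference of 1 or more in either direction. Alternatives were pseudocounts of 5 and 0.5, no filter or a mean of at least 50, no fold limit, quantile normalization, fewer lines, the passage as a replicate block, leaving out each library and, added after seeing the data, edgeR 4.0.16 (quasi-likelihood, TMM) on the recovered reads. The passage numbers pair libraries of the pre-iPS and iPS lines: passage differences correlated between lines (mean 0.353, 0.235 to 0.504 over 6 pairs of lines).

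The genes and lists were chosen with earlier results of these data known, and the partner and neighbouring genes after the 28 were known. Genes were named by rank of ratio, level or change, by nearness to a limit, or by list. *Pcsk1* and *Esr1* were added so that every gene is described, and the partner and neighbouring genes were named after their values were seen. Names were matched to GENCODE M21 (98.9% located). The tests were checked on simulated counts. A listed partner gene is not reported here.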

Additional observations from a re-analysis of the deposited data

Results flagged for a closer look

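Among the 6 iPS libraries 1 value stood apart in 2 of the 28 genes. *Ptpn5* was at 305 in the control line at passage 25, with the next highest iPS library at 114. *Pax8* was at 106 in clone 2 at passage 25, with the next highest at 42.6. The gap filled 0.735 and 0.768 of the range of the 6 libraries. Chance marks about 1 in 20 such groups, and the cause was not tested.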

How the results depend on the processing

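The number of genes chosen was 51 with a fold limit of 3 and 7 with a limit of 8, and 28 to 41 when 1 library was left out, with 41 without either pre-iPS library. Quantile normalization gave 35, of which 25 were among the 28. Dropping the fold limit raised the calls to 2 of 28 for passage, and from 289 to 1869 over all 17075 genes. For pre-iPS against iPS it gave 1443 calls in the genes of all family lists (863 with the limit). The neighbouring genes then had 22 calls (12 with the limit). Over all genes that step raised the calls from 2781 to 6758, so a rise was not particular to these sets. Keeping genes with a mean of 50 or more left 463 of the list genes called, and 1758 of all genes. For the Netrin-1-derived lines against the control line 0 were called with only the iPS libraries, and 0 to 2 when 1 library was left out. *Ttll13* kept its call in every such fit except that without the control line at passage 25. For clone 2 against clone 1 the count of 1 became 2 after quantile normalization and by edgeR, 0 with only the iPS libraries, 3 with the replicate block and 0 to 2 when 1 library was left out. Over all genes the replicate block moved the calls from 360 to 564 for the Netrin-1-derived lines and from 165 to 327 for the clones. Except in the clones, it moved no count over the 28 genes, all family lists together, the partners or the neighbours by over 1.5 times, and MEF has no such fit, since its passages carry other numbers. For MEF against iPS the count was 16 to 22 in all settings. The 22 came without the fold limit, where 13546 of all 17075 genes were called, against 8237 with it. In 1219 single-gene refits 0 reversed their direction. These refits covered only the 64 calls of the main fits, each at least 2-fold there, so a reversal was unlikely from the start. Where a gene had only a few reads in a line, as *Npy2r* in iPS and *Tmprss5*, *Ly6g6f* and *Gm1110* in MEF, its fold change depends on the pseudocount.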
